A study of Mus musculus with 6 samples.

Results

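Adipocyte and lipid genes were examined in tail (caudal) arteries dissected from Notch3-/- and Notch3+/+ mice. The genes were 35 named members, chosen as adipocyte, brown fat and lipid metabolism genes. A probe set, the group of short probes by which the chip reports a transcript, counted for a gene where that gene was its only annotated symbol, and each gene was read from its probe set with the highest mean over the 6 arrays. Of the 35 genes, 32 were measured in this way, with 69 probe sets, out of 18193 genes with a single symbol. Plin1, Cfd and Acsl1 were not analysed here. The 32 genes comprised 9 adipocyte genes, 7 brown fat genes and 16 lipid metabolism genes that many cell types use.

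Notch3-/- arteries, which by genotype lack Notch3, a Notch receptor of arterial smooth muscle, came from 3 pools of 4 mice each. Notch3+/+ arteries came from pools of 4, 3 and 3 mice. All mice were 4 weeks old (postnatal day 28). The labels give no other allele, strain, sex or treatment, and they do not describe the targeted Notch3 allele or say how far fat around the artery was removed. The pools are named as biological replicates, and each counts as 1 sample, which averages over the mice in it. Values are RMA expression values on the log2 scale, and all differences are Notch3-/- minus Notch3+/+.

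Fat cells store triglyceride in droplets coated by perilipins, release fatty acids from them through a chain of lipases, and secrete hormones such as adiponectin and leptin. Pparg and Cebpa are the transcription factors that drive their differentiation. Arteries are wrapped in perivascular fat, which in mice can resemble brown fat, whose cells burn fatty acids through the uncoupling protein Ucp1, or white fat, depending on the vessel. Fabp4, Cd36 and Lpl are also made outside fat cells, by endothelial cells and macrophages among others.

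Notch3 itself read 6.51, 6.44 and 5.87 in Notch3-/- replicates 1 to 3, against 9.94, 9.95 and 10.09 in Notch3+/+ replicates 1 to 3, on its brighter probe set. Correlations between arrays over all probe sets lay between 0.990 and 0.996. Notch3-/- replicate 2 stood apart on the first principal component, at 39.5 against -17.1 to 5.85 for the other arrays. Across all genes, 12732 had a mean at or above 3.83, the level below which genes were not tested, and 41 of these (0.322%) passed an adjusted p of 0.05 in limma. Their median difference was -0.003.

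The promoter windows of Dio2, Plin4 and Prdm16 are shown because these genes had the largest differences of either sign among the measured genes. They run from 250 bases before the annotated start to the first 50 bases from it, on the minus strand of RefSeq assembly GRCm38.p6, at chr12:90738989-90739288 for Dio2, chr17:56109733-56110032 for Plin4 and chr4:154636824-154637123 for Prdm16. Capitals mark matches on either strand to the cyclic AMP response element TGACGTCA, the TATA box TATAAA, the CCAAT box CCAAT, the C/EBP motif TTGCNNAA and the PPAR response element AGGTCANAGGTCA.
Dio2: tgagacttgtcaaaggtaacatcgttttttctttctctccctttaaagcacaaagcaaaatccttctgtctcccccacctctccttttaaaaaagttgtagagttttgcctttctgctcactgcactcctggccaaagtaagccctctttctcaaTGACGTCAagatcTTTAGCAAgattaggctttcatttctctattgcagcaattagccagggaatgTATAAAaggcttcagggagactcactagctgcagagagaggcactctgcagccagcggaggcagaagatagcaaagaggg
Plin4: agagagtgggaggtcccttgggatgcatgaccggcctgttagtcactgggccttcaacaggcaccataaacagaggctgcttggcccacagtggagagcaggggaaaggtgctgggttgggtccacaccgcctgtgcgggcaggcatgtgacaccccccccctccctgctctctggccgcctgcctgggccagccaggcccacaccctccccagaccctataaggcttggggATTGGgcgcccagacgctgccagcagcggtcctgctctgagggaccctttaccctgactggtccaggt
Prdm16: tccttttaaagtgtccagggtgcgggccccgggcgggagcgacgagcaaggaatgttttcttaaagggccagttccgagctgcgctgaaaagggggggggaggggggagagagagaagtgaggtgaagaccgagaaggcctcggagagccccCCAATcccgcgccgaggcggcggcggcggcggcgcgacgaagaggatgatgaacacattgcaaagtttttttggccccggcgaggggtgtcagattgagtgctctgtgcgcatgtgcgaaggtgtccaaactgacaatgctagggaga

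With the start base counted as 0, the Dio2 window held the cyclic AMP response element at -95 to -88 and a TATA box at -30 to -25. It also held a C/EBP match, read on the opposite strand, at -82 to -75. The Plin4 window held a CCAAT box, read on the opposite strand, at -18 to -14, and the Prdm16 window held one at -98 to -94. No matches overlapped in these windows. Of the 32 measured genes, 24 had at least 1 window in the table, and 1 of them, Dio2, held the cyclic AMP response element, which 1.79% of all 32851 windows held. The CCAAT box was found in 11 of the 24 genes and in 37.4% of all windows, the C/EBP motif in 4 of the 24 and 10.8%, and the TATA box in 3 of the 24 and 13.6%. The PPAR response element was in 0 of the 24 genes and in 0.0396% of all windows. A gene counted if any of its windows held the motif, while the shares are per window, so counts and shares are not directly comparable. A match describes the letters in the window and is not a measured binding site.

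Of the 9 adipocyte genes, 8 were above the level filter and tested, and 0 of them passed the test for a difference between genotypes in limma, beside 0.322% of all genes, with 1, Plin4, lower at an unadjusted p under 0.05, beside 4.81% of all genes. The adiponectin gene Adipoq read 9.28, 9.55 and 9.02 in Notch3-/- pools, against 9.37, 9.31 and 9.18 in Notch3+/+ pools. The highest and the lowest pool were both Notch3-/-, and the difference of -0.003 (SE 0.14) had a 95% interval of -0.32 to 0.32. Fabp4, the fatty acid binding protein of adipocytes, averaged 11.80 ± 0.08 in Notch3-/- and 11.74 ± 0.19 in Notch3+/+ pools (SD, n = 3 each), with an interval of -0.20 to 0.32. In arteries taken whole, fewer cells of a type and less RNA per cell cannot be told apart.

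The other secreted hormones gave no separation either. Retn, which encodes the hormone resistin, read 7.59, 8.25 and 7.75 in Notch3-/- pools, against 7.81, 7.94 and 7.72 in Notch3+/+ pools. Notch3-/- replicate 2 was highest for both Adipoq and Retn, and without it the Retn difference of 0.04 became -0.15. Lep, the gene for leptin, read 2.80, 3.07 and 2.85 in Notch3-/- pools, against 3.14, 3.08 and 3.07 in Notch3+/+ pools. These values lie below the level filter, so Lep was not tested.

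Plin4, a perilipin that coats lipid droplets, had the largest lower value of the adipocyte genes. It read 8.74, 8.73 and 8.60 in Notch3-/- pools, against 8.91, 9.09 and 9.21 in Notch3+/+ pools. All Notch3-/- pools lay below all Notch3+/+ pools. The difference was -0.38 (SE 0.10), or 1.30-fold lower in Notch3-/-, with a 95% interval of -0.61 to -0.15 and an adjusted p of 0.244 from limma (unadjusted p = 0.00568), so it did not pass over all genes. With 1 array left out at a time it lay between -0.46 and -0.31. With arrays weighted by their quality the adjusted p was 0.0247, in a fit whose weights were 3.04 for Notch3-/- replicate 3 and 2.94 for Notch3+/+ replicate 2, and 0.29 to 0.84 for the other arrays.

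Cidec, which enlarges the single large droplet of white adipocytes, read 5.36, 5.41 and 4.65 in Notch3-/- pools, against 5.44, 5.11 and 5.20 in Notch3+/+ pools. The low value of Notch3-/- replicate 3 set its sign, since without that pool the difference of -0.11 became 0.14. Lipe, the hormone-sensitive lipase gene, read 6.94, 6.78 and 6.73 in Notch3-/- pools, against 7.06, 7.06 and 6.87 in Notch3+/+ pools. The pools overlapped, and the interval of its difference of -0.40 to 0.04 included 0.

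The adipocyte transcription factor genes Pparg and Cebpa differed by -0.02 and -0.09. Pparg averaged 6.06 ± 0.12 in Notch3-/- and 6.08 ± 0.22 in Notch3+/+ pools, and Cebpa 7.22 ± 0.20 in Notch3-/- and 7.31 ± 0.03 in Notch3+/+ pools (SD, n = 3 each). Of the 9 adipocyte genes, 7 were lower and 2 higher in Notch3-/- on average, where 50.5% of all genes tested were lower. The median difference was -0.09, or -0.06 over the 8 that were tested, beside -0.003 over all genes tested. Per pool, the median deviation of these genes from their means was -0.01, 0.11 and -0.15 in Notch3-/- replicates 1 to 3 and 0.09, 0.05 and 0.01 in Notch3+/+ replicates 1 to 3, so the genotypes overlapped.

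**Figure D1:**
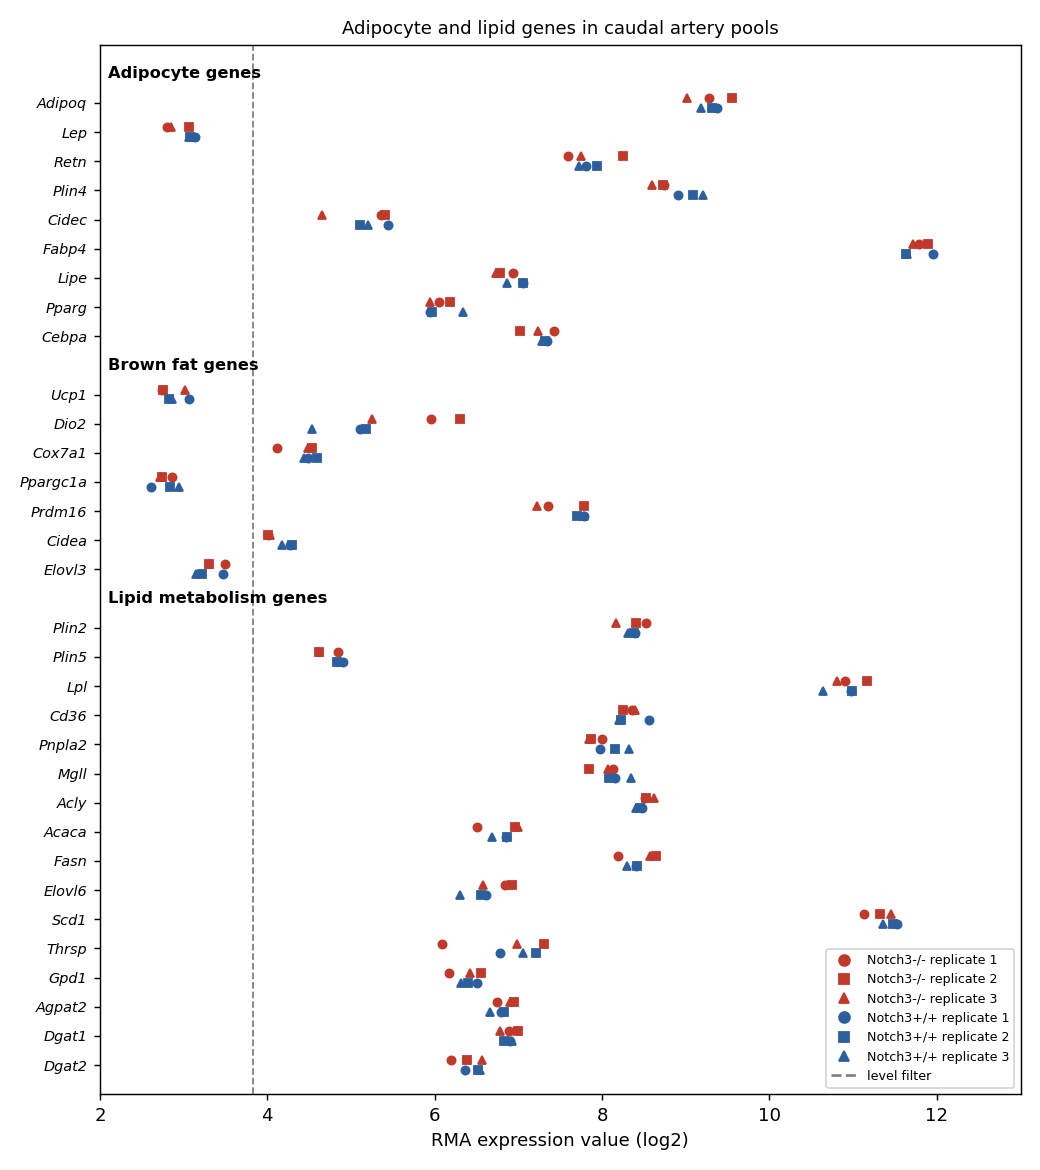
RMA expression values (log2, x axis) of the 32 measured genes, 1 point per pool, with Notch3-/- pools in red above Notch3+/+ pools in blue and the level filter of 3.83 as a dashed line. Adipoq, Fabp4 and Retn lie above the filter in all pools, while Lep, Ucp1, Ppargc1a and Elovl3 lie below it in all pools, and levels of different genes are not comparable with one another.

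Among brown fat genes, Ucp1, Ppargc1a and Elovl3 were low in every pool, while Dio2, Cox7a1, Prdm16 and Cidea had means above the level filter. Ucp1, the uncoupling protein of brown fat mitochondria, read 2.74, 2.75 and 3.02 in Notch3-/- pools, against 3.06, 2.83 and 2.86 in Notch3+/+ pools. Ppargc1a, the coactivator that drives mitochondrial biogenesis, read 2.86, 2.74 and 2.72 in Notch3-/- pools, against 2.61, 2.84 and 2.95 in Notch3+/+ pools. Elovl3, a fatty acid elongase induced by cold in brown fat, read 3.50, 3.30 and 3.30 in Notch3-/- pools, against 3.47, 3.22 and 3.15 in Notch3+/+ pools. All 3 genes lay below the level filter in all 6 pools and were not tested, and the brown fat label therefore rests on Dio2, Cox7a1, Prdm16 and Cidea, of which Cidea lay close to the filter and the others are also made outside fat.

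Dio2, the deiodinase that turns thyroxine into its active form, had the largest difference of all measured genes. On its brightest probe set it read 5.96, 6.30 and 5.25 in Notch3-/- pools, against 5.11, 5.18 and 4.54 in Notch3+/+ pools. Every Notch3-/- pool lay above every Notch3+/+ pool, although Notch3-/- replicate 3, at 5.25, lay close to Notch3+/+ replicate 2, at 5.18. The difference was 0.89 (SE 0.28), or 1.86-fold higher, with a 95% interval of 0.24 to 1.54 and an adjusted p of 0.317 from limma (unadjusted p = 0.0136), so it did not pass over all genes.

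The 3 Dio2 probe sets did not give the same size. The second read 4.58, 4.55 and 4.17 in Notch3-/- pools, against 4.18, 3.81 and 3.98 in Notch3+/+ pools, a difference of 0.44. The third, whose mean lay below the filter, differed by -0.01. With 1 array left out at a time the brightest probe set differed by 0.66 (without Notch3-/- replicate 2) to 1.19 (without Notch3-/- replicate 3), and with array weights by 0.39.

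Prdm16, a transcriptional regulator of brown fat fate, was lower on average in Notch3-/- pools on all 4 of its probe sets, by -0.43 to -0.30. On the brightest it read 7.36, 7.78 and 7.22 in Notch3-/- pools, against 7.78, 7.70 and 7.78 in Notch3+/+ pools. Notch3-/- replicate 2 matched the Notch3+/+ pools there, and the difference was -0.30 (SE 0.14, adjusted p = 0.483 from limma). Without that pool the difference was -0.46, with an unadjusted p of 0.00101 and an adjusted p of 0.19, and without Notch3-/- replicate 3 the difference was -0.18. With the same array weights as above the adjusted p was 0.0428. The dimmest probe set read 4.17, 4.03 and 4.26 in Notch3-/- pools, against 4.66, 4.39 and 4.70 in Notch3+/+ pools, with no overlap and an adjusted p of 0.24.

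Cidea, the droplet protein of brown fat related to Cidec, read 4.01, 4.01 and 4.03 in Notch3-/- pools, against 4.27, 4.30 and 4.17 in Notch3+/+ pools. The pools did not overlap, the difference was -0.23 (SE 0.075), or 1.17-fold lower, and its adjusted p was 0.337 (unadjusted p = 0.0163). Values so near the filter carry no detection call. Cox7a1, a cytochrome oxidase subunit gene of brown fat and muscle, averaged 4.38 ± 0.23 in Notch3-/- and 4.51 ± 0.08 in Notch3+/+ pools (SD, n = 3 each). Of the 7 brown fat genes, 5 were lower and 2 higher in Notch3-/- on average. Their median of -0.08 is the difference of Ucp1, which lay below the filter, and the median of the 4 tested genes was -0.18. In limma 0 of the 4 tested genes passed, beside 0.322% of all genes. An unadjusted p under 0.05 was reached by 1 that was higher (Dio2), beside 7.1% of all genes, and by 1 that was lower (Cidea), beside 4.81%.

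**Figure D2:**
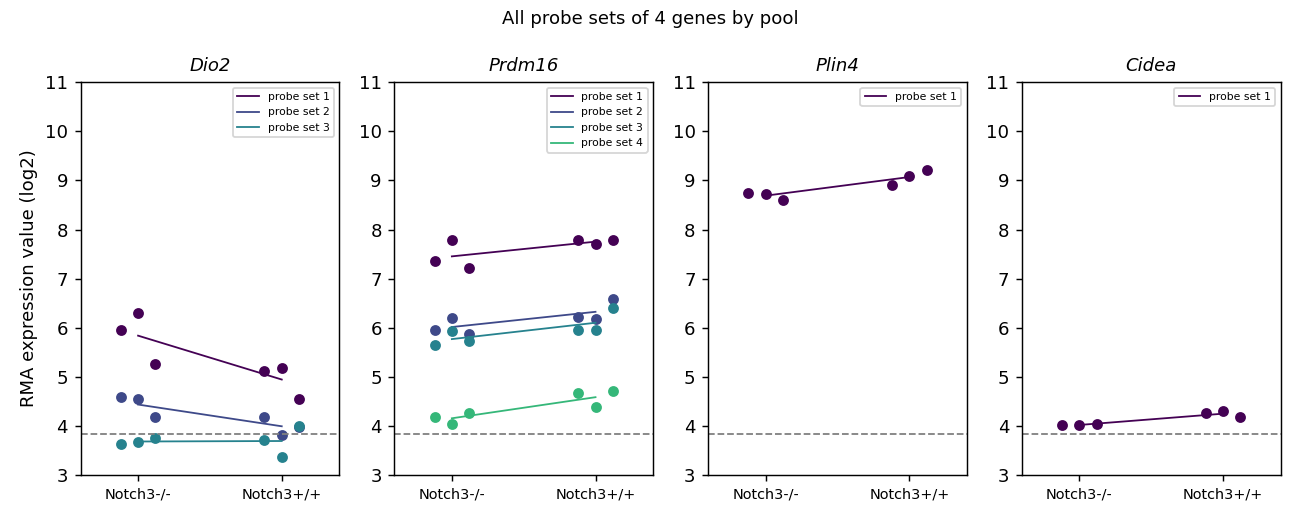
RMA expression values (log2, y axis) of every probe set of Dio2, Prdm16, Plin4 and Cidea, with the 3 Notch3-/- pools to the left of the 3 Notch3+/+ pools and lines joining the group means; the dashed line is the level filter. The 2 brighter Dio2 probe sets slope down to Notch3+/+ (differences of 0.89 and 0.44), and all 4 Prdm16 probe sets slope up (-0.43 to -0.30).

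The lipid metabolism genes lay close to 0 as a group, with 8 higher, 7 lower and 1 level in Notch3-/- and a median of 0.002. The droplet protein genes Plin2, made in most cells that store lipid, and Plin5, made in oxidative tissue, differed by 0.003 and -0.17. Plin5 read 4.84, 4.62 and 4.62 in Notch3-/- pools, against 4.90, 4.83 and 4.87 in Notch3+/+ pools. Lpl, which frees fatty acids from circulating lipoproteins, and Cd36, which takes them up, differed by 0.09 and 0.003. Lpl averaged 10.96 ± 0.18 in Notch3-/- and 10.87 ± 0.20 in Notch3+/+ pools, and Cd36 8.33 ± 0.07 in Notch3-/- and 8.33 ± 0.20 in Notch3+/+ pools (SD, n = 3 each).

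The lipases that act on stored fat were lower on average, without passing. Pnpla2, which cleaves the first fatty acid from triglyceride, averaged 7.91 ± 0.08 in Notch3-/- and 8.15 ± 0.17 in Notch3+/+ pools (SD, n = 3 each). Notch3+/+ replicate 1 lay within the Notch3-/- range, and the difference was -0.24 (SE 0.10, adjusted p = 0.445 from limma). Mgll, which cleaves the last, differed by -0.18 (SE 0.11), and its 4 probe sets by -0.18 to -0.09. With Lipe at -0.18, the 3 lipase genes had the same sign, and none had an unadjusted p under 0.05. Without Notch3+/+ replicate 3 Pnpla2 differed by -0.16 and Mgll by -0.10, and without Notch3-/- replicate 2 Mgll differed by -0.09. Over the mean of all its probe sets, Lipe differed by -0.09 and Pnpla2 by -0.16. Those means include a second probe set of each gene that lay below the level filter, with differences of 0.007 for Lipe and -0.08 for Pnpla2.

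Among genes of fatty acid synthesis, Fasn, Acaca and Thrsp overlapped between genotypes and were lowest in the same Notch3-/- pool. Fasn, the fatty acid synthase gene, read 8.19, 8.64 and 8.57 in Notch3-/- pools, against 8.40, 8.42 and 8.30 in Notch3+/+ pools. Acaca, which makes its substrate malonyl-CoA, read 6.51, 6.96 and 6.99 in Notch3-/- pools, against 6.85, 6.86 and 6.69 in Notch3+/+ pools. Thrsp, a lipogenic protein gene that responds to thyroid hormone, read 6.09, 7.31 and 6.98 in Notch3-/- pools, against 6.78, 7.21 and 7.06 in Notch3+/+ pools. In all 3 genes Notch3-/- replicate 1 was the lowest of the 6 pools and the other Notch3-/- pools included the highest. Without replicate 1 the Thrsp difference of -0.22 became 0.13.

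Acly, which supplies cytosolic acetyl-CoA, read 8.51, 8.52 and 8.62 in Notch3-/- pools, against 8.48, 8.45 and 8.40 in Notch3+/+ pools. The pools did not overlap but the difference was 0.11 (SE 0.07), and its other tested probe sets differed by 0.33 and -0.09. The pools did not overlap on the Acly probe set at 0.33 either (adjusted p = 0.327 from limma, unadjusted p = 0.015), and they overlapped on the one at -0.09. Elovl6, which lengthens the product of Fasn, read 6.84, 6.92 and 6.58 in Notch3-/- pools, against 6.61, 6.55 and 6.30 in Notch3+/+ pools. Its difference was 0.29 (SE 0.12), or 1.23-fold higher, with an adjusted p of 0.435 from limma (unadjusted p = 0.0463). The 2 tested Elovl6 probe sets differed by 0.29 and 0.16, and the third, whose mean lay below the filter, by 0.17. Scd1, the desaturase gene, averaged 11.30 ± 0.16 in Notch3-/- and 11.46 ± 0.09 in Notch3+/+ pools (SD, n = 3 each), a difference of -0.16.

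Genes of triglyceride assembly differed by -0.09 to 0.10. Agpat2, which adds the second fatty acid to glycerol phosphate, differed by 0.10 (SE 0.09), and Gpd1, which makes glycerol phosphate, by -0.03 (SE 0.12). Dgat1 and Dgat2, which complete triglyceride, averaged 6.89 ± 0.11 and 6.38 ± 0.18 in Notch3-/- pools, against 6.89 ± 0.05 and 6.47 ± 0.10 in Notch3+/+ pools (SD, n = 3 each). The interval of the Dgat1 difference was -0.20 to 0.20, the narrowest of these 4 genes.

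**Figure D3:**
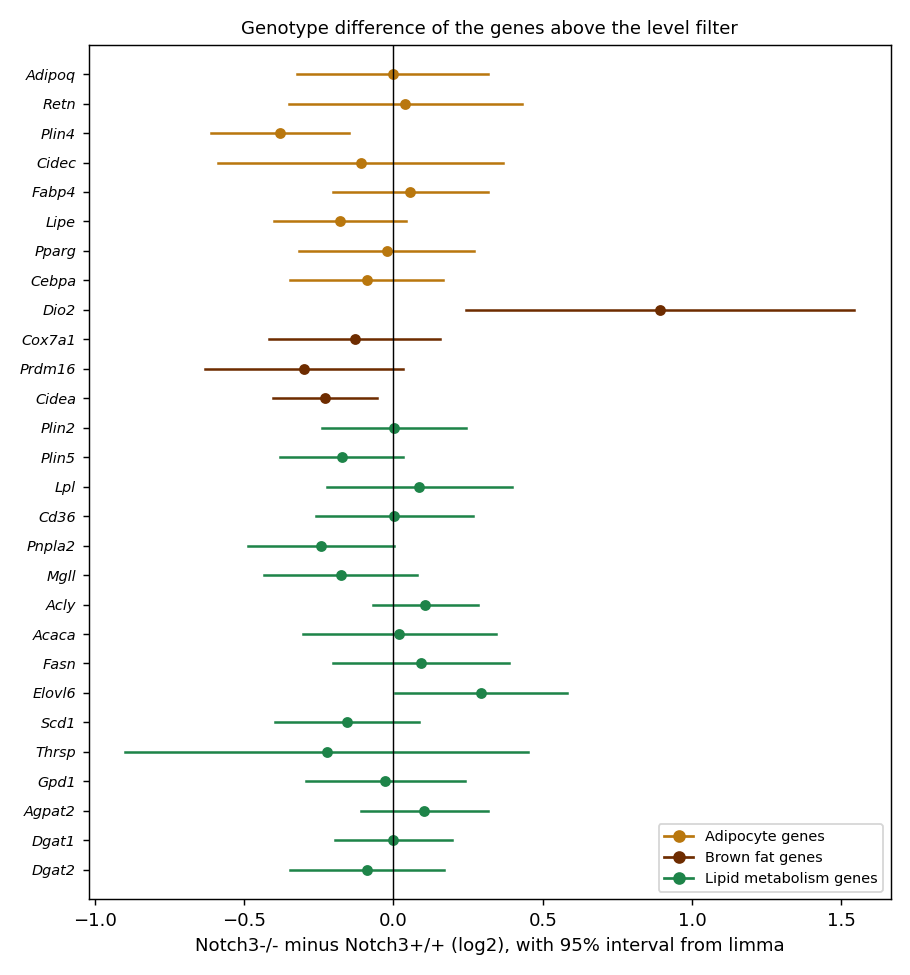
Genotype difference (Notch3-/- minus Notch3+/+, log2, x axis) of the 28 tested genes, with 95% intervals from limma that are not adjusted for the number of genes. The intervals of Dio2 and Elovl6 lie above 0 and those of Plin4 and Cidea below it, and none of the 4 genes passed over all genes.

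In all, 28 of the 32 genes were above the level filter and tested, and 0 passed over all genes in limma, where 0.322% of all genes passed. An unadjusted p under 0.05 was reached by 2 genes that were higher (Dio2 and Elovl6), where 7.1% of all genes did so, and by 2 that were lower (Plin4 and Cidea), where 4.81% did so. The pools did not overlap in 2 genes that were higher (Dio2 and Acly), beside 9.46% of all genes, and in 2 that were lower (Plin4 and Cidea), beside 7.88% of all genes. These shares lay near the background. On the brightest probe set of each gene, the 95% interval lay within a 1.5-fold change in either direction for 23 of the 28 genes. The exceptions were Plin4, Cidec, Dio2, Prdm16 and Thrsp. Among the 23, a dimmer tested probe set went past that bound for Fabp4 (-0.065 to 0.73), Cd36 (-0.66 to 0.22) and Scd1 (-0.98 to 0.59).

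The Notch3-/- pools were also more spread in these genes, as they were over all genes tested. In 23 of the 32 genes, of which 4 were not tested, the range over Notch3-/- pools was wider than over Notch3+/+ pools, and in 8 it was narrower. Over all genes tested, 61.1% had the wider range in Notch3-/- pools. Thrsp and Dio2 had the widest ranges over Notch3-/- pools, at 1.22 and 1.05, against 0.43 and 0.64 over Notch3+/+ pools. The tested probe sets of Fabp4, Lpl, Cd36, Acly, Acaca, Dgat2 and Thrsp differed in sign from one another.

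Other genes of the same pathways were read from 3 further lists, in which 0 genes passed over all genes. The counts under an unadjusted p of 0.05 that follow stand beside 7.1% of all genes that were higher and 4.81% that were lower. Of 20 other fat cell genes, 19 were measured and 18 tested, 3 with an unadjusted p under 0.05 in limma (2 higher and 1 lower), and the median was -0.01. Pnpla3, a lipid droplet protein gene related to Pnpla2, read 4.29, 4.99 and 4.59 in Notch3-/- pools, against 4.11, 3.99 and 4.11 in Notch3+/+ pools, and its difference of 0.55 had an adjusted p of 0.297. Abhd5, the activator of Pnpla2, differed by 0.24, Slc2a4, the insulin-responsive glucose transporter gene of fat and muscle, by -0.56, and Acacb, the mitochondrial relative of Acaca, by -0.16. Of the 18 tested genes in this list, the pools did not overlap in 2 that were higher and 2 that were lower. Over all genes, 9.46% were higher and 7.88% lower without overlap. The genes without overlap were the 4 just named, which were chosen for the smallest p in the list.

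Of 20 genes of fatty acid oxidation, 18 were measured and 17 tested, 1 with an unadjusted p under 0.05 in limma (Hadhb), and 10 were lower and 8 higher in Notch3-/- on average. Hadhb and Hadha, the subunits of the mitochondrial trifunctional protein, differed by -0.19 and -0.31, the electron carrier subunit gene Etfb by -0.16 and the medium-chain dehydrogenase gene Acadm by -0.16. The median over the list was -0.05.

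Of 16 sterol synthesis genes, 13 were measured and tested, 2 with an unadjusted p under 0.05 in limma (Dhcr7 and Idi1), 11 were higher in Notch3-/- on average and the median was 0.10. Hmgcs1, which makes the HMG-CoA from which sterols are built, read 9.14, 9.72 and 9.68 in Notch3-/- pools, against 9.18, 9.30 and 9.13 in Notch3+/+ pools. Idi1, which makes dimethylallyl diphosphate, read 7.16, 7.79 and 7.59 in Notch3-/- pools, against 7.24, 7.15 and 7.04 in Notch3+/+ pools. As in Fasn and Acaca, Notch3-/- replicates 2 and 3 were high and replicate 1 was not. Dhcr7, the last reductase of cholesterol synthesis, differed by 0.29, and Srebf2, the transcription factor gene of the pathway, by -0.21.

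Markers of other cell types that a dissected artery can hold also differed between the pools. Their summed levels, as antilogs of the log2 values, were 6263 to 6709 in Notch3-/- pools against 7051 to 8033 in Notch3+/+ pools for 14 endothelial markers, of which 11 were lower on average, with Ptprb and Cldn5 at the highest levels. For 9 fibroblast markers, all higher in Notch3-/- on average and with Dcn and Lum at the highest levels but the smallest differences (0.007 and 0.04), the sums were 18949 to 20215 in Notch3-/- against 16791 to 18068 in Notch3+/+ pools. In limma 1 fibroblast marker passed, beside 0.322% of all genes. It was Dpt, named here after its values were seen, with a difference of 0.58 and an adjusted p of 0.0499. No endothelial, macrophage, skeletal muscle or smooth muscle marker passed. An unadjusted p under 0.05 in limma was reached by 4 of 14 endothelial markers (all lower) and 3 of 15 tested skeletal muscle markers (all lower). It was reached by 6 of 14 macrophage and 4 of 9 fibroblast markers (all higher). Of 8 smooth muscle markers, 1 was higher and 2 were lower at that p. Over all genes, 7.1% were higher and 4.81% lower. For 14 macrophage markers, all higher in Notch3-/- on average and with Csf1r and Lyz2 at the highest levels, the sums were 2844 to 3849 in Notch3-/- against 1826 to 3016 in Notch3+/+ pools. The part of these cells in the values of Fabp4, Cd36, Lpl, Plin2 and Dio2 was not tested.

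For 17 skeletal muscle markers, of which 15 were lower and 2 higher in Notch3-/- on average, the sums were 1407, 1055 and 2386 in Notch3-/- pools, against 1921, 2123 and 1590 in Notch3+/+ pools, and Acta1 and Myh1 were the brightest. Their part in the values of Cox7a1, Plin5, Slc2a4, Hadha and Hadhb was not tested. For 8 smooth muscle markers, with Acta2 and Tagln at the highest levels, the sums were 26461 to 27148 over Notch3-/- pools, against 24486 to 28467 over Notch3+/+ pools. The measured markers of the sebaceous gland, another lipid-making tissue of skin, were Scd3 and Mc5r, both within 3.66 to 3.97 in the Notch3-/- pools and within 3.79 to 4.03 in the Notch3+/+ pools, around the level filter. The sums over the 9 adipocyte genes were 5191, 5637 and 4846 in Notch3-/- pools, against 5760, 4994 and 4973 in Notch3+/+ pools. Most of each sum came from Fabp4, the brightest of them, which is also made outside fat cells. Fabp4 and Lipe together gave 3664, 3905 and 3480 in Notch3-/- pools, against 4117, 3303 and 3308 in Notch3+/+ pools. These sums therefore do not measure the amount of fat.

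**Figure D4:**
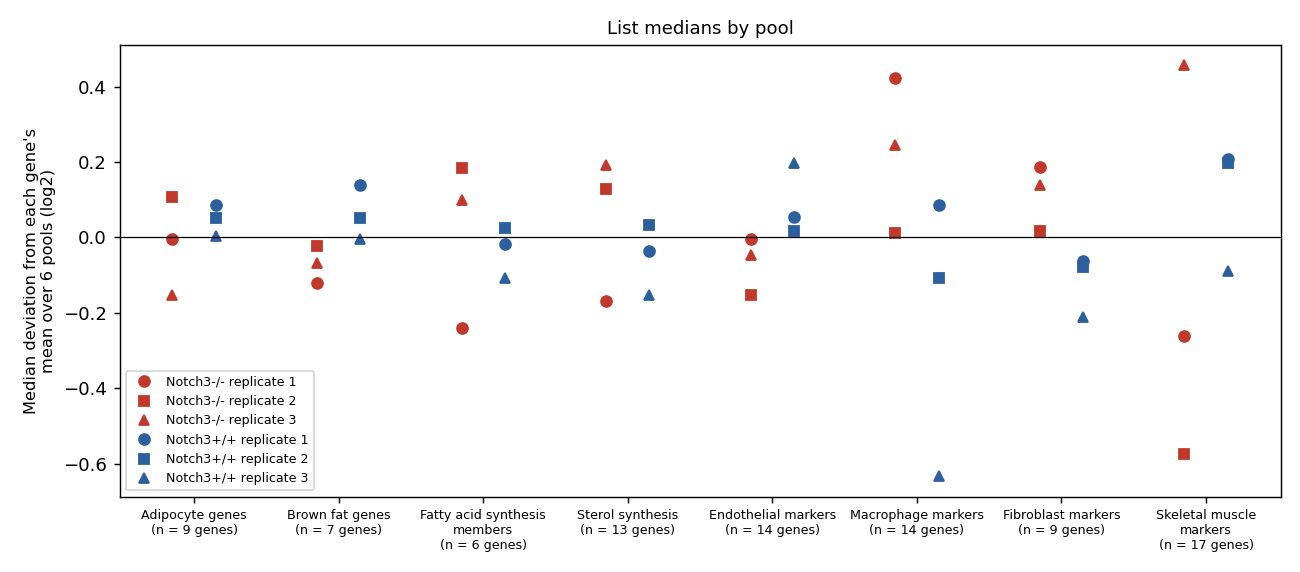
Median deviation of each gene list from its genes' means over the 6 pools (log2, y axis), 1 point per pool, with Notch3-/- pools in red to the left of Notch3+/+ pools in blue. Adipocyte genes overlap between genotypes, Notch3-/- replicates 2 and 3 lie above replicate 1 in fatty acid and sterol synthesis, and the median of fibroblast markers is higher in every Notch3-/- pool than in every Notch3+/+ pool.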

How the data were processed

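Each pool of arteries was hybridised to a MOE430 2.0 Affymetrix chip, from 2.5 µg of total RNA, per the labels' protocols and the series' design text. Per the submitters' processing notes the authors used RMA, which corrects background, equalises array distributions and summarises probes, and they deposited 1 log2 value for each probe set. No RMA version was found in the sources used here, and the scale was inferred from the range of values. Depth has no counterpart on arrays, and the 6 arrays limit the precision.

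Of 45101 probe sets, 64 chip controls were left out. Those with a mean below the 40th percentile (3.83) were not tested, which left 27027. Differences were tested with limma 3.58.1 (lmFit, eBayes, genotype as the only term) in R 4.3.3, adjusted by Benjamini-Hochberg over 27027 probe sets at 0.05, two-sided. The fit was tested on simulated data. Names came from the platform annotation (1 symbol for 34945 probe sets), and promoters from RefSeq GRCm38.p6, matched by symbol. All members were named, as were the 4 genes of smallest p per pathway list and the 2 brightest per marker list. The members and lists were chosen with earlier results of these data known. Alternatives varied the level filter, variance model, normalization, weights, replicate block, probe sets, threshold and omission of each array.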

Additional observations from a re-analysis of the deposited data

How the results depend on the processing

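In limma 0 of the measured genes passed in each alternative tried, including each omission of an array and an adjusted p of 0.1, except with array weights, where 2 passed (Plin4, adjusted p = 0.0247, and Prdm16, adjusted p = 0.0428). In the pathway lists 1 gene, Pnpla3, passed with those weights and 0 otherwise. That setting called 978 of all probe sets, against 68 without weights, and its weights were 3.04 for Notch3-/- replicate 3, 2.94 for Notch3+/+ replicate 2 and 0.29 to 0.84 for the other arrays. Across the alternatives the adjusted p ranged from 0.0247 to 0.628 for Plin4, 0.0606 to 0.722 for Dio2, 0.0648 to 0.727 for Cidea and 0.305 to 0.79 for Elovl6. The median difference of adipocyte genes was -0.197 with array weights and lay between -0.153 and 0.032 (without Notch3-/- replicate 3) when 1 array was left out. That of all 7 brown fat genes, of which 3 lay below the level filter, was between -0.172 (without Notch3-/- replicate 3) and -0.032. That of lipid metabolism genes lay between -0.051 (without Notch3-/- replicate 2) and 0.04, and was -0.057 with the mean over all probe sets of a gene. The causes were not tested. The sign of 14 of the 32 genes changed under at least 1 alternative, of which Cidec and Thrsp had a reported difference of 0.1 or more in size, and 17 kept their sign. Dgat1, at 0.000, lay between -0.088 and 0.053. Deviations of same-numbered pools from their group means had correlations of 0.242, 0.046 and -0.067 for replicates 1 to 3. Those of differently numbered pools lay between -0.174 and 0.143. With 3 pools per genotype these values cannot show whether the numbers pair the pools. With the replicate block 0 measured genes passed in limma, and the adjusted p of Dio2 was 0.0606, against 0.317 without it.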
